A study of Mus musculus with 12 samples.

Results

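The 10 genes described here are H19, Igf2, Igf2r, Airn, Cdkn1c, Grb10, Plagl1, Mest, Peg3 and Kcnq1ot1, imprinted genes of growth control that lie outside the Dlk1-Dio3 locus. They were found by symbol in the count tables of mouse liver, and all 10 were present among 22609 genes and passed the filter on low counts that left 13684 genes for testing. RNA sequencing was done on liver of 12 untreated adult mice, 3 in each of 4 genotypes. Wild-type mice (WT) carried no transgene, AEG1 mice carried Alb/AEG-1, MYC mice carried Alb/c-Myc, and AEG1_MYC mice carried both. In Alb lines the albumin promoter drives the transgene in hepatocytes, so the other cells of the liver are not its direct target, while whole liver was sequenced. The labels give neither exact age nor sex, litter or batch. The p values therefore set genotype differences against the spread between these mice, whatever the source of either.

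An imprinted gene is expressed mainly or only from the copy inherited from one parent, a choice set by DNA methylation laid down in the egg or sperm. Many imprinted genes act on fetal growth: those active from the father's copy, such as Igf2, Plagl1, Mest and Peg3, include growth promoters, and those active from the mother's copy, such as H19, Igf2r, Cdkn1c and Grb10, include growth restrainers. Several are abundant in fetal liver and are switched down after birth, and H19 and Igf2 are known to return in some liver tumours. The counts do not separate the parental copies, so a level here is the sum over both.

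3 promoters and 1 pair of microRNAs are shown because the results below turn on their genes. Igf2r and Airn are the sense and antisense transcripts of one domain, and Plagl1 and Igf2r hold the E-box CACGTG, the core motif bound by MYC with its partner MAX. The sequences are RefSeq's on build GRCm38.p6, 250 bases before the start site, read 5′ to 3′ along the gene. Capitals mark the E-box, and a sequence without capitals holds none. The Igf2r stretch is chr17:12769707-12769956 on the minus strand, that of Airn chr17:12741061-12741310 on the plus strand and that of Plagl1 chr10:13090582-13090831 on the plus strand.
Igf2r: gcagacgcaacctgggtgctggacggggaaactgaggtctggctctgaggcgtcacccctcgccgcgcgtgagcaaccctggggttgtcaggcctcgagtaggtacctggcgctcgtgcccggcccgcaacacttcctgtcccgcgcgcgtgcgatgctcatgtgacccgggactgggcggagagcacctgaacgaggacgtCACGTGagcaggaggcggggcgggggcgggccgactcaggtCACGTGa
Airn: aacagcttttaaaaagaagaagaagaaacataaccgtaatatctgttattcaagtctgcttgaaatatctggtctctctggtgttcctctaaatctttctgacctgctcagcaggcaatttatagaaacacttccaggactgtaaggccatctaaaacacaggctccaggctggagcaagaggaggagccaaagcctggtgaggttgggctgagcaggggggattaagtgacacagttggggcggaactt
Plagl1: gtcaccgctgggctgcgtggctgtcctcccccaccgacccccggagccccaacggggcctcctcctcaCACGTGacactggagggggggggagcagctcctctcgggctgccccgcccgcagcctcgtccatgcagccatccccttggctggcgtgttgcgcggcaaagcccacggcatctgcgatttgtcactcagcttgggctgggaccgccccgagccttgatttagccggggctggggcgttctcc
The E-box was searched in windows of 300 bases, from 250 before to 50 after each start. It reads the same on both strands, so the 2 strands give 1 match. Of the 10 members 8 had an entry, with 14 windows in all, and the members without one were H19 and Cdkn1c. Igf2r held 2 matches, with first bases at -48 and -7 from its start, and Plagl1 held 1 at -182. Over all 32851 promoters of the table, 7.15% held at least 1 match and 0.594% held 2 or more. A match is a string of letters and not a measured site.

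H19 is also the host of miR-675, whose 2 mature arms are cut from the H19 transcript. Both are written in RNA letters, with the seed, bases 2 to 8, in capitals. They lie on chr7 of GRCm38.p6 on the minus strand, the 5p arm at chr7:142577112-142577133 and the 3p arm at chr7:142577078-142577099.
mmu-miR-675-5p: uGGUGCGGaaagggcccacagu
mmu-miR-675-3p: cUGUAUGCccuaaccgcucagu
The 2 seeds differ. The rows of Mir675 and of Mir483, which lies in Igf2, held 0 reads in all 12 libraries, and that of Mir335, which lies in Mest, held 1 read in 1 library. A library made for longer RNA does not measure mature microRNAs, so these rows say nothing about the arms shown.

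The libraries held between 21931197 and 40552316 reads assigned to genes. Myc, the targeted gene of 1 transgene, stood at 2.26 to 4.73 CPM (reads of the gene over the library's scaled total, so that libraries of different depth compare) in WT, 3.54 to 4.59 in AEG1, 23.4 to 53.8 in MYC and 58.4 to 165 in AEG1_MYC. Mtdh, the mouse gene of AEG-1, stood at 89.0 to 112 CPM over all 12 libraries, and its row does not separate the AEG1 carriers. The AEG1_MYC livers did not form a tight group. Replicate 2 had a mean correlation of 0.923 with the other libraries and replicate 1 of 0.955, against 0.968 to 0.972 for the other 10. The defining hepatocyte markers (8 genes, led by Alb) were present throughout, with a summed level of 103557 to 111918 CPM in WT and of 34350 to 73680 CPM in AEG1_MYC, lowest in replicate 2. A sum is weighted to its most abundant genes, and the 8 genes did not fall alike, as given below.

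None of the 10 members passed the test in any comparison. Before adjustment for the number of genes, 3 had a p under 0.05: H19, Igf2r and Airn had higher levels in AEG1_MYC than in WT, by 7.14, 1.35 and 5.06 times in the fit. Their adjusted p values by edgeR's quasi-likelihood test (Benjamini-Hochberg over 13684 genes) lay between 0.136 and 0.176. The threshold for a call was an adjusted p of 0.05, and in AEG1_MYC against WT 0 of 10 members were called, beside 0.263% of all genes tested. At an unadjusted p under 0.05 there were 3 members, all higher in AEG1_MYC, beside 17.2% of all genes in either direction and 9.66% that were higher. A count of 3 among 10 genes is above those shares but too small to be a result about the members as a group, which was not tested. DESeq2 called 2 members, H19 and Airn, beside 4.76% of all genes, and limma with quality weights called 0.

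**Figure D1:**
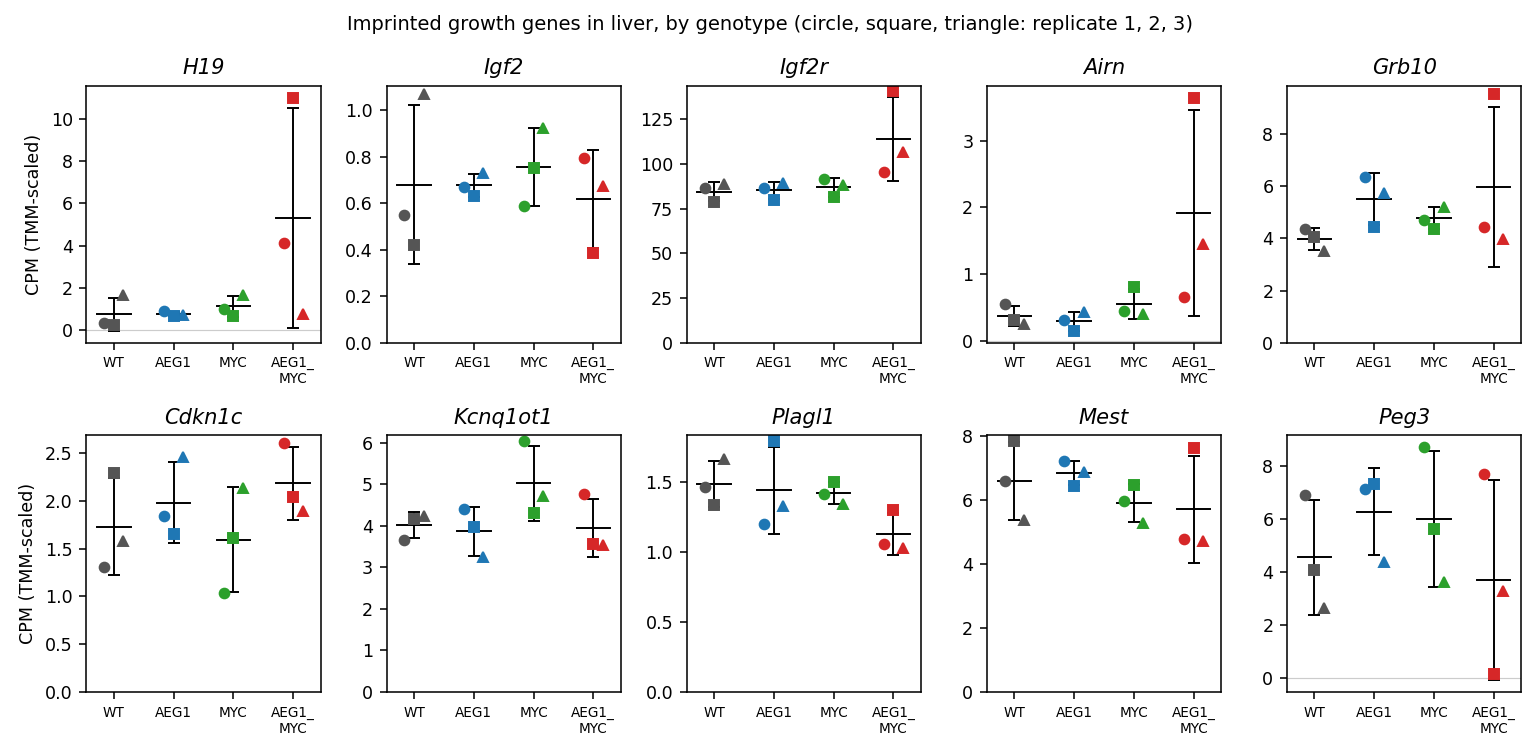
Level of each member in CPM (vertical axis, a separate linear scale per gene) in each of the 12 livers, with the mean (line) and SD (bar) of the 3 mice of a genotype. H19, Airn and Igf2r are highest in AEG1_MYC replicate 2, at 10.99, 3.65 and 141 CPM, where Peg3 is at 0.148 CPM.

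H19, a long non-coding RNA expressed from the mother's copy, was low in nearly all livers. It stood at 0.336, 0.268 and 1.67 CPM in WT, 0.892, 0.679 and 0.728 in AEG1, and 1.0, 0.697 and 1.69 in MYC. In AEG1_MYC it stood at 4.13, 10.99 and 0.770 CPM, which is 125, 371 and 24 reads. Replicates 1 and 2 of AEG1_MYC were thus above all 10 other livers, and replicate 3 lay inside the range of WT, so the groups overlapped. Against WT the log2 fold change was 2.84 ± 0.90 (SE, n = 3 and 3; edgeR, adjusted p = 0.176). It was 1.72 (adjusted p = 0.449) without AEG1_MYC replicate 2, and 3.37 (adjusted p = 0.0348) without replicate 3, the setting in which 1 member was called, beside 4.95% of all genes. WT was uneven too, and without WT replicate 3 the log2 fold change was 4.12. In bulk liver, more H19 RNA per cell and more cells that hold it cannot be told apart.

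Igf2, the fetal growth factor that shares its enhancers with H19, was not high in those livers. Its lowest, median and highest levels over the 12 livers were 0.385, 0.672 and 1.07 CPM, from 11 to 35 reads. In AEG1_MYC it stood at 0.793, 0.385 and 0.674 CPM, inside the span of WT in replicates 1 and 3, and lowest of all 12 in replicate 2, the liver highest in H19. The log2 fold change of AEG1_MYC against WT was -0.13 ± 0.40 (SE; edgeR, adjusted p = 0.887), with a 95% interval from -1.01 to 0.75. A change within those bounds cannot be told from no change with 3 livers per group. Of 7 neighbours of H19 and Igf2, among them Mrpl23 and the lysosomal protease gene Ctsd, 3 were tested and 0 were called by edgeR, DESeq2 or limma in AEG1_MYC against WT, 0 also at an unadjusted p under 0.05.

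Igf2r encodes the receptor that carries IGF2 to the lysosome for degradation, and that sorts enzymes tagged with mannose 6-phosphate. It was the best measured member, at 1644 to 4748 reads per library. Its level was 86.6, 78.6 and 88.6 CPM in WT, 86.8, 79.8 and 89.3 in AEG1, and 91.7, 81.3 and 88.4 in MYC. In AEG1_MYC it was 95.6, 141 and 107 CPM, so each of the 3 was above each of the 9 other livers. Against WT alone, 9.81% of all genes tested lay above without overlap, and the share above all 9 was not counted. The log2 fold change of Igf2r against WT was 0.43 ± 0.13 (SE, n = 3 and 3; edgeR, adjusted p = 0.168), and 0.26 (adjusted p = 0.361) without replicate 2. The same AEG1_MYC livers gave 0.42 ± 0.13 against AEG1 and 0.39 ± 0.13 against MYC, with adjusted p of 0.162 and 0.234 by edgeR.

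Airn is the long non-coding RNA that runs from the second intron of Igf2r in the opposite direction, and that silences Igf2r, Slc22a2 and Slc22a3 on the father's copy in tissues such as placenta. Its counts were few, 3 to 29 reads in the 9 livers outside AEG1_MYC. It stood at 0.549, 0.306 and 0.256 CPM in WT, at 0.307, 0.146 and 0.427 in AEG1, and at 0.449, 0.808 and 0.395 in MYC. In AEG1_MYC it stood at 0.661, 3.65 and 1.44 CPM, above all WT and AEG1 livers, while replicate 1 lay below 1 MYC liver. The log2 fold change was 2.34 ± 0.63 against WT, 2.64 ± 0.64 against AEG1 and 1.79 ± 0.60 against MYC (SE; edgeR, adjusted p = 0.136, 0.101 and 0.233). Without AEG1_MYC replicate 2 the value against WT was 1.47 (adjusted p = 0.359), and without replicates 1 and 2 together it was 1.93 (adjusted p = 0.678).

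The counting's use of strand is not given in the sources used here, and on RefSeq's GRCm38 annotation Airn covers 32.5% of the span of Igf2r and 71.8% of that of Mas1. Whether reads of the 3 genes in the shared stretches were kept apart is therefore not known. Over the 12 livers the log2 CPM of Igf2r and Airn had r = 0.87, and r = 0.68 over the 11 without AEG1_MYC replicate 2, in libraries that share this overlap. If strand was not used, reads from introns of unspliced Igf2r could be counted for Airn, and their part in its counts was not tested.

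Of 9 neighbours in the Igf2r domain 8 were tested and 0 were called in AEG1_MYC against WT by edgeR. At an unadjusted p under 0.05 there were 2, both higher, beside 9.66% of all genes that were higher. DESeq2 called those 2, Slc22a3 and Mas1, as did edgeR without AEG1_MYC replicate 3, and limma called 0. Slc22a3, a transporter of organic cations, stood at 4.36, 2.49 and 3.20 CPM in WT, and at 36.7, 37.6 and 2.66 in AEG1_MYC. It was thus high in replicates 1 and 2 and at the level of WT in replicate 3, the order that H19 also showed for replicate 3. Its log2 fold change was 2.93 ± 0.74 (SE; edgeR, adjusted p = 0.123), against an adjusted p of 0.00100 by DESeq2. Mas1, a receptor gene, stood at 0.671, 0.345 and 1.88 CPM in WT and at 4.49, 21.8 and 1.51 in AEG1_MYC, a log2 fold change of 3.28 ± 0.94 (edgeR, adjusted p = 0.150; DESeq2, adjusted p = 0.00471). It was 1.65 (edgeR, adjusted p = 0.408) without AEG1_MYC replicate 2. Airn does not overlap Slc22a3 on that annotation.

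**Figure D2:**
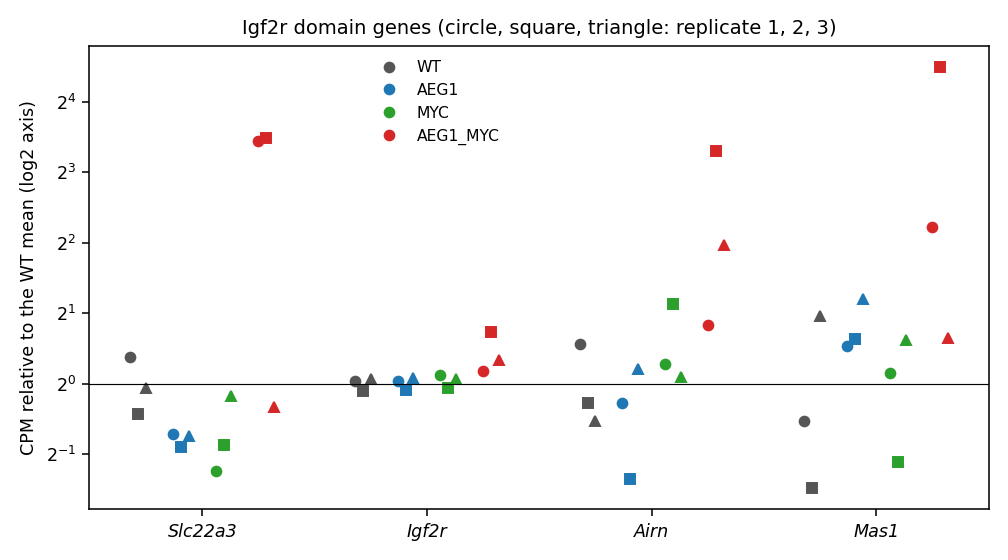
CPM of Igf2r, Airn and 2 neighbours in each liver, divided by the mean of the 3 WT livers (log2 axis, 1 is the WT mean). AEG1_MYC replicates 1 and 2 stand highest for Slc22a3, at 36.7 and 37.6 CPM, whereas replicate 3 is at 2.66 CPM, and replicate 2 is highest for all 4 genes.

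Grb10, an adaptor that dampens insulin and IGF receptor signalling, stood at 4.36, 4.06 and 3.50 CPM in WT. It was 6.36, 4.42 and 5.75 CPM in AEG1, 4.70, 4.38 and 5.22 in MYC, and 4.43, 9.51 and 3.98 in AEG1_MYC. The 6 livers with 1 transgene were all above the 3 WT livers, by a narrow margin, and in AEG1_MYC replicate 2 alone was far above. None of these differences passed the test: the log2 fold change against WT was 0.47 ± 0.30 in AEG1, 0.26 ± 0.30 in MYC and 0.59 ± 0.30 in AEG1_MYC (SE; edgeR, adjusted p = 0.9997, 0.999 and 0.342). Without replicate 2 the last was 0.079 (adjusted p = 0.891).

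Cdkn1c, the CDK inhibitor p57, halts the cell cycle. It stood at 1.31, 2.30 and 1.58 CPM in WT, and at 2.61, 2.04 and 1.89 in AEG1_MYC. The groups overlapped, as did AEG1 (1.65 to 2.46 CPM) and MYC (1.04 to 2.13 CPM) with WT. The log2 fold change of AEG1_MYC against WT was 0.34 ± 0.32 (SE; edgeR, adjusted p = 0.601), with a 95% interval from -0.36 to 1.04. Of 6 other CDK inhibitors 4 were tested and 0 called by edgeR or limma in AEG1_MYC against WT. At an unadjusted p under 0.05 by edgeR there was 1, beside 17.2% of all genes. That 1 was Cdkn2c, p18, at 2.14, 1.49 and 1.24 CPM in WT and 5.25, 16.3 and 5.46 in AEG1_MYC, a log2 fold change of 2.46 ± 0.61 (edgeR, adjusted p = 0.122). DESeq2 called Cdkn2c (adjusted p = 0.00222), as did edgeR without AEG1_MYC replicate 3 (adjusted p = 0.0441), and without replicate 2 the value was 1.71.

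Kcnq1ot1 is the long non-coding RNA that silences Cdkn1c and other genes of the Kcnq1 domain on the father's copy. It stood at 3.66, 4.17 and 4.23 CPM in WT, 6.04, 4.32 and 4.72 in MYC, and 4.76, 3.56 and 3.53 in AEG1_MYC. All 3 MYC livers were above the WT livers, by little, and AEG1_MYC overlapped WT. The log2 fold change was 0.32 ± 0.20 in MYC and -0.026 ± 0.20 in AEG1_MYC (SE; edgeR, adjusted p = 0.999 and 0.959). Kcnq1ot1 lies wholly inside Kcnq1 on RefSeq's annotation, so their reads are subject to the same limit as those of Airn. Of 11 neighbours in the domain 8 were tested and 0 called by edgeR or limma in AEG1_MYC against WT. At an unadjusted p under 0.05 there was 1, beside 17.2% of all genes. It was Cars, a tRNA synthetase gene, at 71.1, 66.8 and 45.3 CPM in WT and 37.9, 32.6 and 36.9 in AEG1_MYC, a log2 fold change of -0.77 ± 0.17 (edgeR, adjusted p = 0.0959), which DESeq2 called (adjusted p = 0.00344). Against WT, Cars was also lower in AEG1 and MYC, at -0.53 and -0.39 (edgeR, adjusted p = 0.9997 and 0.999), in groups that overlapped WT.

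Plagl1, a zinc-finger factor that regulates other imprinted genes, was the 1 member whose AEG1_MYC livers all lay below the WT livers. It stood at 1.46, 1.34 and 1.67 CPM in WT and at 1.06, 1.30 and 1.03 in AEG1_MYC, from 32 to 48 reads. The 3 AEG1_MYC livers were below all WT and all MYC livers, and they overlapped AEG1, at 1.20 to 1.796 CPM. The log2 fold change against WT was -0.40 ± 0.23 (SE; edgeR, adjusted p = 0.400), and -0.51 without replicate 2. Across AEG1_MYC and WT, 2 members, Igf2r and Airn, were above without overlap and 1, Plagl1, below, beside 19.5% of all genes tested without overlap, 9.81% above and 9.65% below.

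Mest, an enzyme-like protein of the endoplasmic reticulum linked to fetal growth and fat cell size, stood at 6.59, 7.85 and 5.38 CPM in WT. It was 7.22, 6.45 and 6.88 CPM in AEG1, 5.97, 6.49 and 5.30 in MYC and 4.79, 7.65 and 4.72 in AEG1_MYC. All groups overlapped, and the log2 fold change of AEG1_MYC against WT was -0.21 ± 0.21 (SE; edgeR, adjusted p = 0.635).

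Peg3, a zinc-finger gene of maternal behaviour and growth, varied widely within each genotype. It stood at 6.92, 4.10 and 2.65 CPM in WT, 7.14, 7.33 and 4.39 in AEG1, and 8.74, 5.63 and 3.64 in MYC. In AEG1_MYC it stood at 7.70, 0.148 and 3.27 CPM. Replicate 2 held 5 reads of Peg3, with an exact Poisson 95% interval of 0.0481 to 0.346 CPM that covers counting error only, and its level was 2.63% of the median of the 11 other livers. The other 2 AEG1_MYC livers lay in the range of WT or just above it, and the log2 fold change was -0.31 ± 0.85 (SE; edgeR, adjusted p = 0.874). Without replicate 2 it was 0.26.

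**Figure D3:**
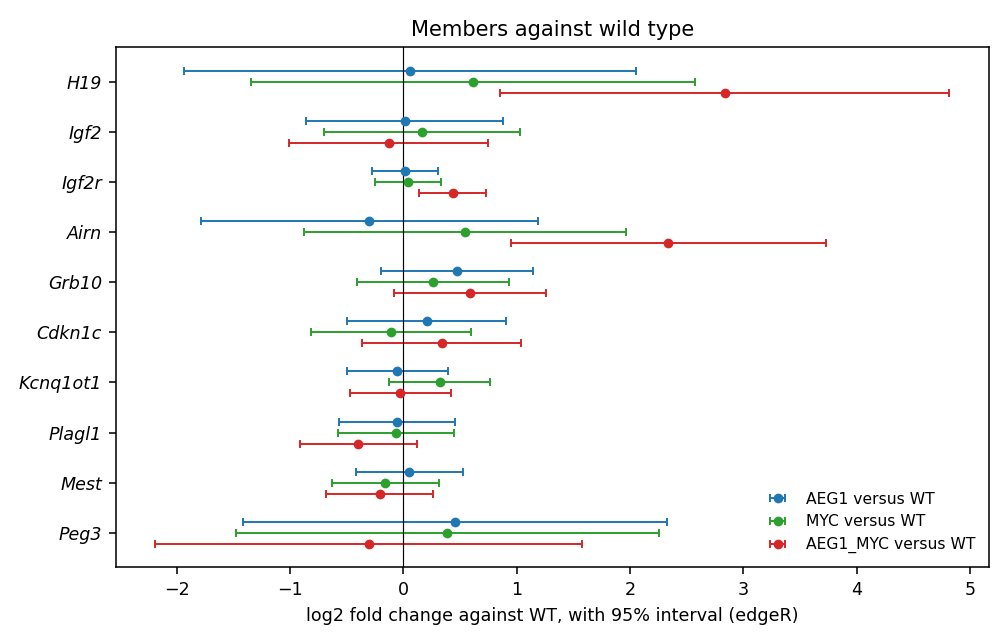
Log2 fold change of each member against WT in AEG1, MYC and AEG1_MYC (horizontal axis, edgeR), with 95% intervals; the 3 comparisons share the WT livers. The AEG1_MYC intervals of H19 (0.85 to 4.82), Igf2r (0.14 to 0.73) and Airn (0.95 to 3.73) lie above 0 before adjustment, and every other interval spans 0.

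With 1 transgene alone, no member differed from WT by a margin that passed the test. In AEG1 against WT 0 of 10 members were called, beside 0% of all genes, and 0 had an unadjusted p under 0.05, beside 3.92%. The median log2 fold change of the members was 0.032 and that of all genes -0.0018, with the members between -0.30 (Airn) and 0.47 (Grb10). In MYC against WT 0 were called, beside 0% of all genes, and 0 had an unadjusted p under 0.05, beside 3.47%. The members lay between -0.16 (Mest) and 0.61 (H19), with a median of 0.21 beside -0.0030 for all genes. H19 rested on single livers there, at 0.19 without MYC replicate 3 and 1.89 without WT replicate 3. DESeq2 and limma called 0 members in both. Groups without overlap were 1 member in AEG1 (Grb10, higher, beside 10.7% of all genes in either direction and 5.16% higher) and 2 in MYC (Grb10 and Kcnq1ot1, higher, beside 11.6% and 5.47%).

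The other contrasts share livers with those above. In AEG1_MYC against AEG1 edgeR called 0 members, beside 0.322% of all genes, with H19, Igf2r and Airn at an unadjusted p under 0.05 and higher, beside 17.4% of all genes in either direction and 10.1% higher. The groups did not overlap for 2 members, Igf2r and Airn, beside 17.8%. DESeq2 called H19 and Airn there, beside 5.12%, limma called 0, and without AEG1_MYC replicate 3 edgeR called H19, beside 4.54%. In AEG1_MYC against MYC the same 3 members were at an unadjusted p under 0.05, beside 15.2% and 8.86% higher, and 0 were called by edgeR, DESeq2 or limma, beside 0.205% by edgeR. Igf2r and Plagl1 did not overlap between these groups, beside 18.5% of all genes. Without AEG1_MYC replicate 2, none of the 10 was at an unadjusted p under 0.05 in that contrast. The log2 difference of H19 from MYC was 2.23 ± 0.86 (SE; edgeR, adjusted p = 0.269), and 1.11 without that replicate.

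Taking the 6 MYC carriers against the 6 mice without that transgene, 0 members were called by edgeR, beside 0.11% of all genes, and 3 were at an unadjusted p under 0.05 and higher, beside 11.1% in either direction and 6.53% higher. The log2 differences were 1.69 ± 0.62 for H19, 1.59 ± 0.45 for Airn and 0.23 ± 0.09 for Igf2r (SE; edgeR, adjusted p = 0.359, 0.240 and 0.391). Each is the mean of MYC against WT, at 0.61, 0.55 and 0.042, and of AEG1_MYC against AEG1, at 2.78, 2.64 and 0.42. The larger part thus came from the AEG1_MYC livers. Without AEG1_MYC replicate 2 the carrier values were 1.14, 1.16 and 0.14. DESeq2 called 1, Airn, beside 2.23%, and limma called 0. In AEG1 carriers against the other 6 mice 0 were called by edgeR, DESeq2 or limma, beside 0.0512% by edgeR, and 0 were at an unadjusted p under 0.05, beside 9.43%. The interaction asks whether both transgenes together differ from the sum of each alone, on the log2 scale. It called 0 members by edgeR, DESeq2 or limma, beside 0.0219% by edgeR, and Airn alone was at an unadjusted p under 0.05, beside 9.25% and 5.67% higher, with a log2 value of 2.09 ± 0.90 (SE; edgeR, adjusted p = 0.520). Without AEG1_MYC replicate 2 this value was 1.23. H19 had 2.17 ± 1.24 there (edgeR, adjusted p = 0.616), and 0.90 without WT replicate 3, and its effects in the 2 backgrounds were therefore not shown to differ. The test of any difference among the 4 genotypes called 0 members by edgeR, beside 0.519%, with 3 at an unadjusted p under 0.05, beside 12.7%. DESeq2 called 2 there, beside 5.39%, limma called 0, and edgeR without AEG1_MYC replicate 3 called 1, beside 2.1%.

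AEG1_MYC replicate 2 was the extreme liver for 6 of the 10 members. It was highest of 12 for H19, Igf2r, Airn and Grb10 and lowest for Igf2 and Peg3. Over all tested genes it was highest for 23.2% and lowest for 24.5%, so it stood at an end for many genes, and the members' counts are to be read beside those shares. It also had the lowest hepatocyte marker sum, 34350 CPM. Markers of stellate cells and fibroblasts (10 genes) summed to 243 CPM there, at the top of the AEG1_MYC range of 111 to 243 CPM and above the WT range of 133 to 199 CPM but inside the AEG1 range of 195 to 262 CPM. Those of macrophages (7 genes found) summed to 82.2 CPM there, at the bottom of the AEG1_MYC range of 82.2 to 541 CPM. The macrophage range was 116 to 374 CPM in WT, so the AEG1_MYC livers lay on both sides of it. Markers within a list differed in direction in AEG1_MYC against WT. The log2 fold change was 2.04 for Col1a1 and -0.82 for Reln, and 0.94 for Cd68 and -0.64 for Marco, none called by edgeR. Among the hepatocyte markers it was -1.13 for Alb, -0.83 for Serpina1c, -0.78 for Cps1 and -0.71 for Ttr. It was -0.27 for Apoa1, -0.13 for Hnf4a, -0.11 for Tdo2 and 0.098 for Tat. Of these 8 genes edgeR called 0, and DESeq2 called Alb and Ttr. The part of these cell types in the members' levels was not tested.

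Other imprinted genes, 40 listed that are neither members nor in the Dlk1-Dio3 locus and 39 found by symbol, lay on both sides of WT. Whether each is imprinted in adult liver was not tested. Of the 29 tested, 0 were called in AEG1_MYC against WT by edgeR or limma. At an unadjusted p under 0.05 by edgeR 3 were higher and 5 lower, beside 17.2% of all genes in either direction and 9.66% higher. DESeq2 called 4, Atp10a, Sgce, Peg10 and Tfpi2, beside 4.76% of all genes. Without AEG1_MYC replicate 3 edgeR called 2, Atp10a and Sgce, beside 4.95%. The median log2 fold change of the 29 was -0.20 beside 0.013 for all genes. Atp10a, a lipid flippase gene, was the 1 called in the test of any difference (edgeR, adjusted p = 0.0200). It stood at 0.854, 0.383 and 0.513 CPM in WT, and at 7.10, 8.15 and 1.64 in AEG1_MYC, above all other livers in each of the 3. Against WT alone, 9.81% of all genes tested lay above without overlap. The log2 fold change of Atp10a against WT was 3.25 ± 0.65 (SE; edgeR, adjusted p = 0.0816; DESeq2, adjusted p = 0.000118), and 2.88 (edgeR, adjusted p = 0.186) without AEG1_MYC replicate 2.

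Sgce, a sarcoglycan gene, lay the other way, at 7.66, 2.87 and 4.23 CPM in WT and 1.45, 1.48 and 2.38 in AEG1_MYC, a log2 fold change of -1.48 ± 0.34 (edgeR, adjusted p = 0.106; DESeq2, adjusted p = 0.00356). edgeR called Sgce without AEG1_MYC replicate 3 (adjusted p = 0.0368). Its neighbour Peg10, a gene derived from a retrotransposon and named after its values were seen, stood at 3.75, 0.727 and 0.940 CPM in WT and at 0.0661, 0.326 and 0.353 in AEG1_MYC, from 2 to 11 reads there. Its log2 fold change was -2.85 ± 0.83 (edgeR, adjusted p = 0.155; DESeq2, adjusted p = 0.0221), and -1.70 without WT replicate 1. With 1 transgene, Sgce and Peg10 were lower than WT too, at -1.13 and -2.25 in MYC and -0.61 and -1.40 in AEG1. The adjusted p by edgeR was 0.999 in MYC and 0.9997 in AEG1. Neither gene overlapped WT in MYC, beside 11.6% of all genes in either direction. AEG1_MYC against MYC gave -0.35 and -0.60 (edgeR, adjusted p = 0.648 and 0.765). AEG1_MYC replicate 2 was the lowest of 12 livers for 14 of the 29 other imprinted genes tested and highest for 3. Over all tested genes it was lowest for 24.5% and highest for 23.2%. The Dlk1-Dio3 locus, which stands outside the 10 members, had 3 genes tested, Meg3, Rian and Mirg, and all 3 rose in AEG1_MYC against WT (edgeR, adjusted p = 0.0304, 0.00345 and 0.0334).

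**Figure D4:**
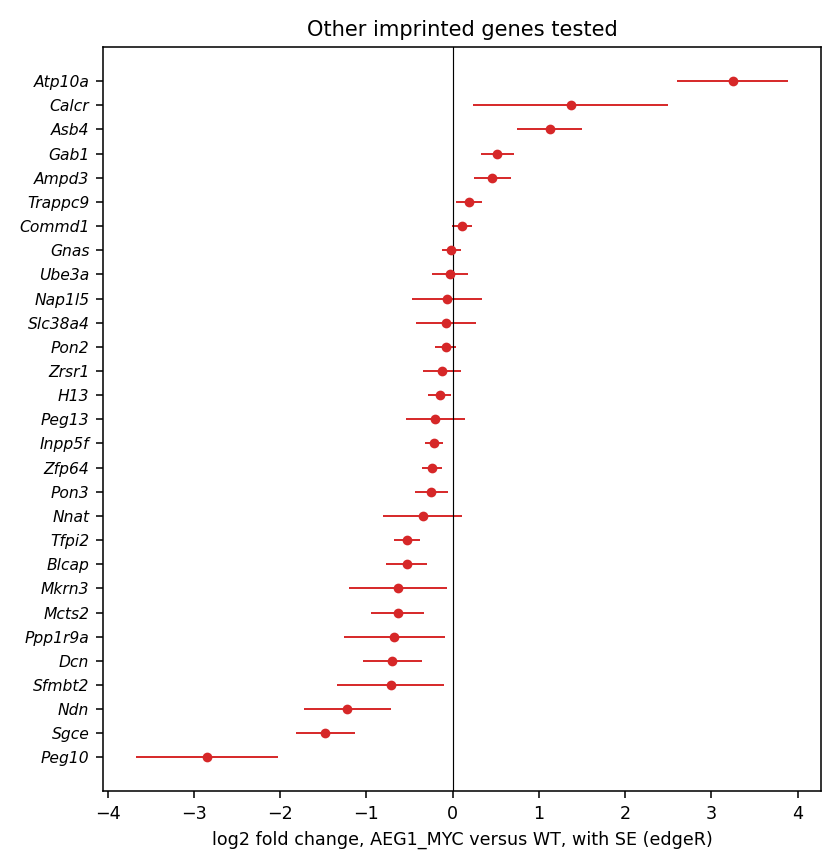
Log2 fold change of AEG1_MYC against WT with its SE (horizontal axis, edgeR) for the 29 tested imprinted genes that are neither members nor in the Dlk1-Dio3 locus. Atp10a (3.25) lies at the top and Peg10 (-2.85) at the bottom, and edgeR called none in this comparison.

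Genes that work with the members were read from lists. Over all genes, 17.2% had an unadjusted p under 0.05 in AEG1_MYC against WT by edgeR, and DESeq2 called 4.76%. Of 25 genes of IGF and insulin signalling 20 were tested and 0 called by edgeR, DESeq2 or limma in AEG1_MYC against WT, with 1 higher and 1 lower, Igf2bp3 and Igf2bp2, at an unadjusted p under 0.05 by edgeR. Without AEG1_MYC replicate 3 edgeR called 2, Igf2bp3 and Grb14. DESeq2 gave no adjusted p for Igf2bp3. Igf2bp3, a fetal RNA-binding protein that binds Igf2 mRNA, was at 0.549 to 0.683 CPM in WT and at 0.727, 10.9 and 0.899 in AEG1_MYC. Its log2 fold change of 2.79 ± 0.89 (edgeR, adjusted p = 0.177) was 0.44 without replicate 2. All 10 genes of lysosomal sorting by mannose 6-phosphate, the second role of Igf2r, were tested, 0 were called by edgeR or limma, and their median log2 fold change was -0.048. The cathepsin gene Ctsb was the 1 at an unadjusted p under 0.05 by edgeR, and DESeq2 called it. It stood at 701, 685 and 760 CPM in WT and at 891, 974 and 782 in AEG1_MYC, without overlap, beside 9.81% of all genes above WT. Of 21 genes of imprint maintenance 18 were tested and 0 called by edgeR or limma, with 2 at an unadjusted p under 0.05 by edgeR. A positive log2 fold change was found for 14 of the 18, beside 51.6% of all genes. Uhrf1, which brings the maintenance DNA methyltransferase to replicated DNA and is expressed in dividing cells, was at 0.519, 0.306 and 0.513 CPM in WT and 2.05, 3.73 and 1.25 in AEG1_MYC, a log2 fold change of 2.38 ± 0.60 (edgeR, adjusted p = 0.122). DESeq2 called Uhrf1 (adjusted p = 0.00701), as did edgeR without AEG1_MYC replicate 3 (adjusted p = 0.0372).

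The genes whose log2 CPM followed a member most closely over the 12 livers were listed as a description, with no test, since the libraries share replicate 2 as an extreme. For H19 they were Cbr3 (r = 0.94, and 0.87 over the 11 livers without AEG1_MYC replicate 2), Mas1 (0.92 and 0.81) and Galnt10 (0.92 and 0.91). For Igf2r they were Mcl1 (0.98 and 0.95), Ncaph2 (0.96 and 0.84) and Txnrd2 (0.95 and 0.81). For Peg3 they were Ube4a (0.95 and 0.69), Il6st (0.95 and 0.67) and Prg4 (0.95 and 0.68), and for Grb10 Myct1 (0.90 and 0.79), Angpt2 (0.90 and 0.70) and Dll4 (0.89 and 0.68). Among these, r fell most without that 1 liver for the genes of Peg3 and for Angpt2 and Dll4 of Grb10. For the other members with a mean CPM of at least 1, the gene of highest r changed little. It was Riok2 for Cdkn1c (0.89 and 0.89), 1700096K18Rik for Plagl1 (0.90 and 0.90), Thumpd2 for Mest (0.90 and 0.88) and AW011738 for Kcnq1ot1 (0.91 and 0.91).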

How the data were processed

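RNA of 12 mouse livers was sequenced, 3 per genotype. The authors deposited raw read counts per gene, 1 table per library with 22609 genes and 5 summary lines, which stayed out of library sizes and tests (no-feature reads were 11.5% to 15.5% and ambiguous reads 0.634% to 0.746% of uniquely aligned reads). Per the submitters' processing notes, the tools were CASAVA 1.8.2, TopHat2 2.0.7 and HTSeq, with build mm9. The HTSeq version, gene annotation and strand setting are not given in the sources used here.

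Counts were fitted in R 4.3.3 with edgeR 4.0.16: TMM scaling, filterByExpr, 1 coefficient per genotype over all 12 libraries, and two-sided quasi-likelihood F tests with the robust step. P values were Benjamini-Hochberg adjusted over 13684 genes, and genes were called at an adjusted p under 0.05. SE is the size of the log2 fold change over the square root of F. CPM used TMM-scaled sizes. The script was tested on simulated data. DESeq2 1.42.0, limma 3.58.1 and 21 alternatives in all were tried.

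The members and gene lists were chosen with earlier results of these data known. Igf2bp2, Grb14, Tfpi2, Ctsb and Peg10 were named after their values were seen. The text names all members, called genes of a list (up to 4), otherwise its 2 genes of smallest any-difference p or some of these, and for members with a mean CPM of at least 1 the 3 genes of highest r, given for 4 members, with only the first given for the others. Mouse genes were located on RefSeq's GRCm38 tables, since no table of mm9 was used here. Replicate numbers follow accession order and pair no mice.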

Additional observations from a re-analysis of the deposited data

Results flagged for a closer look

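Groups of 3 livers were not tested for outliers. Over the 6 carriers of each transgene, and the 6 non-carriers, the highest and lowest liver of each member were set against Dixon's 95% critical value, in 40 tests, and chance passes about 1 in 20 of such groups. That rate is for values from a single normal population, whereas each group here joined livers of different genotypes. AEG1_MYC replicate 2 stood apart from the rest of its carriers in 5 of them. H19 was at 10.99 CPM there, against 4.13 CPM in the next liver, among both the MYC carriers and the AEG1 carriers. Airn was at 3.65 CPM, against 1.44 CPM in the next, again in both. Grb10 was at 9.51 CPM among the MYC carriers, against 5.22 CPM in the next. The 4 groups of carriers and non-carriers share livers, so the 5 results are not independent.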

How the results depend on the processing

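No paired analysis was possible because the labels give the mice no replicate numbers shared between genotypes. Over 21 settings, the count of members called moved in 4 of the 9 comparisons. With DESeq2 it was 2 in AEG1_MYC against WT, 2 in AEG1_MYC against AEG1, 1 in MYC carriers and 2 in the test of any difference. With each library left out in turn the count ran from 0 to 1 in AEG1_MYC against WT, in AEG1_MYC against AEG1 and in the test of any difference, and the 1 was H19 without AEG1_MYC replicate 3. Of the single-gene values, 704 kept direction and side of the threshold, 22 passed the threshold under another setting and 14 changed sign.

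The sign of values near 0 changed most. In AEG1_MYC against WT, Igf2 was 0.064 with limma, 0.0060 without AEG1_MYC replicates 1 and 2, 0.34 without WT replicate 3 and 0.12 without AEG1_MYC replicate 2. Kcnq1ot1 was 0.014 with limma, 0.017 without WT replicate 3, 0.045 without AEG1_MYC replicate 2 and 0.060 without AEG1_MYC replicate 3, and Peg3 was 0.14 without WT replicate 1 and 0.26 without AEG1_MYC replicate 2. Without AEG1_MYC replicates 1 and 2 together, Slc22a3 was -0.33 against WT, and H19 was 0.061 against WT, -0.55 against MYC and -0.60 in the interaction. That setting leaves 1 AEG1_MYC liver, assumed to vary like the others. Airn in AEG1 against WT was 0.12 without WT replicate 1. With each library left out in turn, Igf2 ran from -0.38 to 0.34, Peg3 from -1.42 to 0.26, Kcnq1ot1 from -0.17 to 0.060 and Airn in AEG1 from -0.66 to 0.12. The cause of these changes was not tested beyond the library left out. With a filter of at least 1 CPM in 3 libraries 8 members were tested. In their lowest libraries Airn held 3 reads, Peg3 5, H19 7 and Igf2 11, so low counts limit these values.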
